A study of Mus musculus with 12 samples.

Results

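Fatty acid oxidation and ketogenesis were followed here through 36 genes in rectal tissue of mice with dextran sulfate sodium (DSS) colitis, with and without berberine (BBR). The genes were chosen by symbol from the biochemistry of the pathway, as the enzymes, carriers and regulators that take a fatty acid to acetyl-CoA and ketone bodies, and each needed a mean of at least 0.1 FPKM over the 12 mice. All 36 met that level, out of 15315 genes that did so and 17734 genes in the table. Bulk RNA-seq was made from male C57BL/6 mice aged 8 to 10 weeks, with 3 mice in each of 4 groups. These were normal mice on water, normal mice given BBR, colitis mice, which drank 2.5% DSS for 7 days, and colitis mice given BBR. BBR, a plant alkaloid, was given by gavage at 100 mg/kg, for 6 days by the treatment note of the labels and for 7 days by their group tag. DSS is a polymer that injures the bowel lining, so the model is an acute chemical one, and the samples hold all cell types of the rectum.

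A fatty acid enters the mitochondrion bound to carnitine and is then shortened in a spiral of 4 reactions, each turn of which releases acetyl-CoA and reduced carriers. The liver turns much of this acetyl-CoA into ketone bodies, which other tissues burn. The colonocytes at the surface of the large bowel take most of their energy from butyrate, a short-chain fatty acid made by bacteria, which they oxidize by the same spiral.

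Values are FPKM, that is, fragments scaled for transcript length and for sequencing depth, and they are listed in each group in ascending order of mouse number, which was 1, 3 and 4 for normal mice with or without BBR. Colitis mice carried the numbers 1, 2 and 4, and those given BBR 2, 3 and 4. Fold changes are differences of log2(FPKM + 0.1), given with the standard error (SE) of limma's fit over all 12 mice. P-values were adjusted by Benjamini and Hochberg's method across the 15315 genes tested. A gene was called where the adjusted p was under 0.05, and the limit of the study's methods, an unadjusted P of at most 0.05, stands beside it. The change with DSS was measured without BBR, with BBR, and as the average of both, which uses all 12 mice.

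The 4 mice numbered 4 stood apart in every group. Their column totals were 482194 to 504337 FPKM against 696286 to 765876 in the other 8, and 872 to 1086 genes were listed at 0 in them against 1332 to 1926. In addition, colitis mouse 4 given BBR lay in the range of the mice without DSS for smooth muscle and granulocyte markers. Summed FPKM of 8 smooth muscle markers was 3473 in it, against 71.5 to 653 in the DSS mice numbered 1 to 3, 660 in colitis mouse 4 and 1643 to 4908 in the mice without DSS. Summed granulocyte markers were 2.55 in it against 45.4 to 493 in the other DSS mice and 0.29 to 2.56 without DSS. Counts are therefore also given without that mouse, and why it differed from the other DSS mice was not tested. In bulk tissue, fewer cells of a type and less RNA per cell cannot be told apart.

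Averaged over BBR, 9 of the 36 members were called with DSS, beside 14.3% of all genes. Acadl and Acaa1b rose, beside 2.85% of all genes that did, and Cd36, Oxct1, Acadm, Eci1, Acaa2, Ehhadh and Ppara fell, beside 11.4% of all genes. Acaa1b met the 0.1 FPKM level only through mice given DSS, and without it the count was 8 of 35. At the P limit 2 members were higher (background 5.75%) and 16 lower (33.3%), which is 17 of 35 without Acaa1b. The lower direction belonged to the whole table, in which 78.5% of genes were lower with DSS and the median log2 fold change was -0.36. The median of the members was -0.47, with 29 of 36 lower than 0 but only 19 below the median of all genes and 17 above it. Without Acaa1b, the members ranged from -1.96 (Cd36) to 0.83 (Acadl). The count moved both ways with single mice and with the mouse number. Without normal mouse 3, 1 member, Acadl, and 2.17% of all genes were called. With the mouse number as a block it was 4 members, Acadl, Acaa1b, Cd36 and Oxct1, and 16.1% of all genes. Without colitis mouse 4 given BBR, 19 members and 38.8% of all genes were called. With a block for the mice numbered 4, it was 12 members, with Acadvl, Acat1 and Ppargc1a added to the 9, and 34.9% of all genes. After each mouse was centred on its median gene, 3 members, Acadl, Acaa1b and Cd36, and 6.69% of all genes were called. At the P limit 4 members were then higher and 5 lower, and 10 members that had passed neither limit turned from below to above 0, among them Hadha, Hadhb, Cpt1a and Plin2. Among all genes past the P limit 14.7% were higher with DSS, and this share became 57.3% with that centring and 47.4% with quantile normalization.

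**Figure D1:**
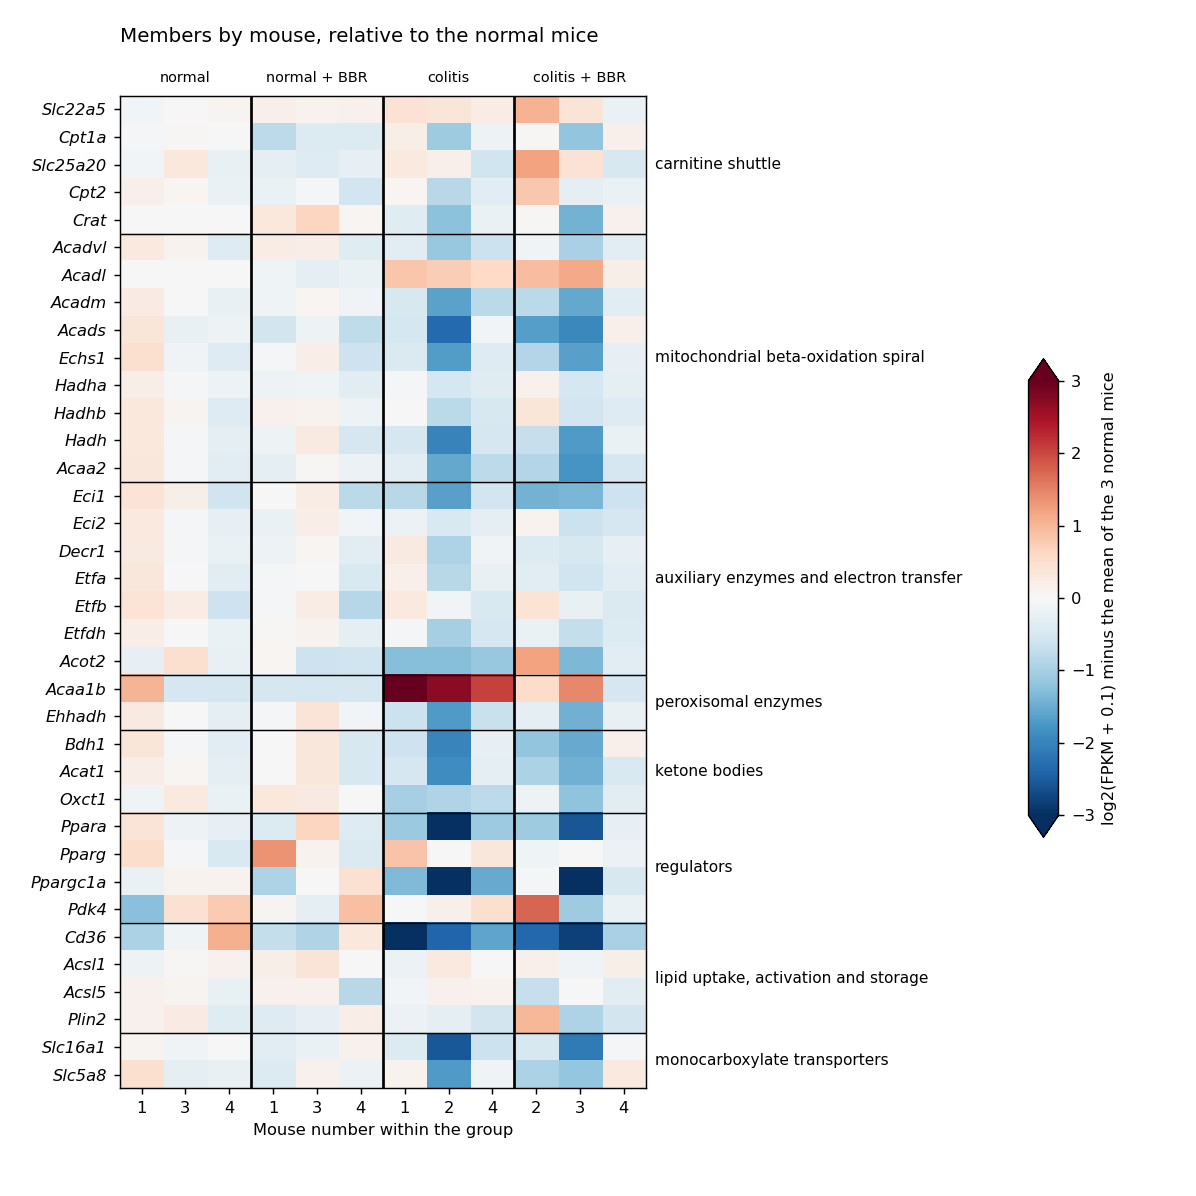
Heat map of the 36 members (rows, grouped by role) in the 12 mice (columns, numbered within each group). Colour is log2(FPKM + 0.1) minus the mean of the 3 normal mice, cut at 3 in either direction. Acadl is red in all 6 DSS mice between mostly blue neighbours, and colitis mouse 2 and colitis mouse 3 with BBR hold most of the darkest blue cells.

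The spiral is run by 9 members. Acadvl, Acadl, Acadm and Acads encode the acyl-CoA dehydrogenases for very long, long, medium and short chains, which take its opening step. Acadl, the long-chain enzyme, was at 95.7, 93.9 and 93.4 FPKM in normal mice, 85.8, 77.7 and 81.8 with BBR, 167, 156 and 142 in colitis mice and 179, 207 and 106 in those given BBR. Each of the 6 DSS mice was above each of the 6 others, as were 0.816% of all genes. The log2 fold change was 0.83 (SE 0.14, adjusted p = 0.0171 by limma).

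Acadm, the medium-chain enzyme, went the other way, at 96.98, 81.5 and 70.5 FPKM in normal mice, 75.3, 85.4 and 76.0 with BBR, 59.1, 26.9 and 47.0 in colitis mice and 46.9, 28.1 and 64.7 in those given BBR. The 6 DSS mice were all below the 6 others, as were 4.96% of genes, and the log2 fold change was -0.90 (SE 0.23, limma adjusted p = 0.0334). Acaa2 encodes the thiolase that closes each turn. It was at 66.8, 52.0 and 42.7 FPKM in normal mice, 43.4, 53.9 and 47.0 with BBR, 42.3, 18.2 and 30.7 in colitis mice and 28.9, 15.5 and 37.0 in those given BBR. It too was lower in each DSS mouse than in any other mouse, though colitis mouse 1 and the lowest normal mouse differed by less than 1 FPKM (log2 fold change -0.89, SE 0.25, limma adjusted p = 0.0401). Acadl, Acadm, Acaa2 and Cd36 were the members whose 6 DSS mice did not overlap the others.

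**Figure D2:**
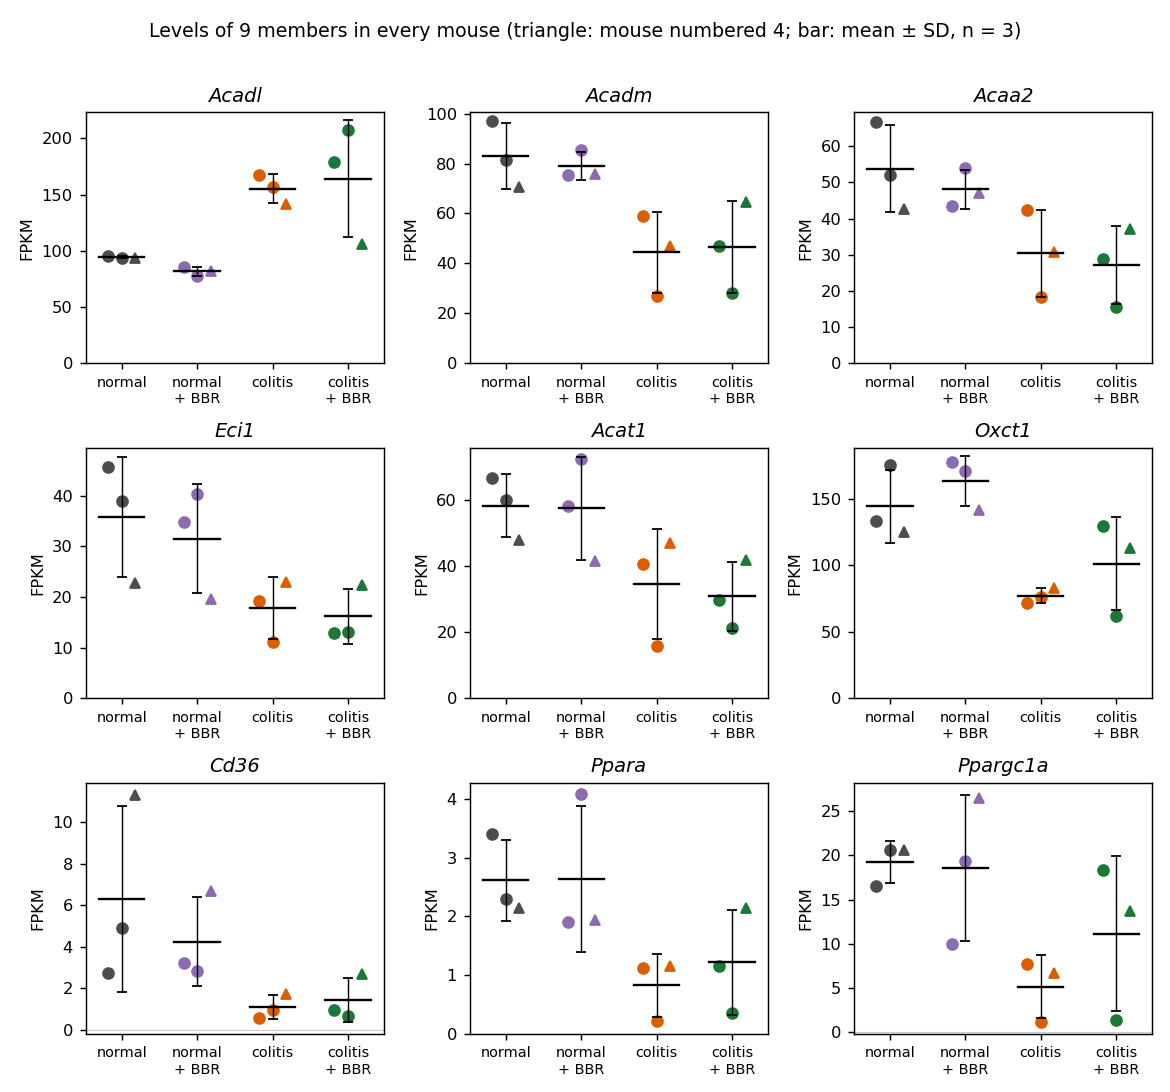
FPKM of 9 members in each mouse by group, with triangles for the mice numbered 4 and bars for the mean ± SD of 3 mice. Acadl lies between 106 and 207 FPKM in DSS mice and between 77.7 and 95.7 in the others, and the other 8 members are lower on average in colitis mice than in normal mice.

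Acadvl was at 95.1, 83.4 and 59.7 FPKM in normal mice, 90.3, 88.9 and 61.1 with BBR, 62.0, 35.4 and 49.6 in colitis mice and 72.1, 40.0 and 62.9 in those given BBR. Its groups overlapped, and it passed the P limit but not the adjusted one (log2 fold change -0.59, SE 0.21, limma adjusted p = 0.0675). Acads, Echs1 and Hadh, which encode the short-chain dehydrogenase, the hydratase and the short-chain hydroxyacyl-CoA dehydrogenase, had log2 fold changes of -0.81, -0.80 and -0.88, none of them called. Their spread was wide, with Acads from 11.8 to 66.4 FPKM in DSS mice and 35.2 to 77.0 in the others. Hadha and Hadhb encode the subunits of the trifunctional protein, which carries out the remaining steps on long chains. Neither passed the P limit, and they were at 95.8 to 151 FPKM (Hadha) and 64.4 to 145 FPKM (Hadhb) with DSS against 112 to 159 and 86.2 to 141 without.

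Unequal change within the spiral was read within each mouse as a ratio, which a scaling by 1 factor per mouse does not alter. Quantile normalization can alter it. The pair was chosen after its values were seen, so the ratio is given without a test. Acadl over Acadm was 0.99, 1.15 and 1.32 in normal mice and 1.14, 0.91 and 1.08 with BBR. It was 2.83, 5.80 and 3.02 in colitis mice and 3.81, 7.37 and 1.64 in those given BBR. The lowest DSS value, that of colitis mouse 4 given BBR, was still above the highest of the 6 others. This was fixed in advance, since each DSS mouse had more Acadl and less Acadm than any other mouse. The ratio therefore adds no separate evidence of unequal change. Hadha over Hadhb, by contrast, stayed between 1.01 and 1.49 in all 12 mice.

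**Figure D3:**
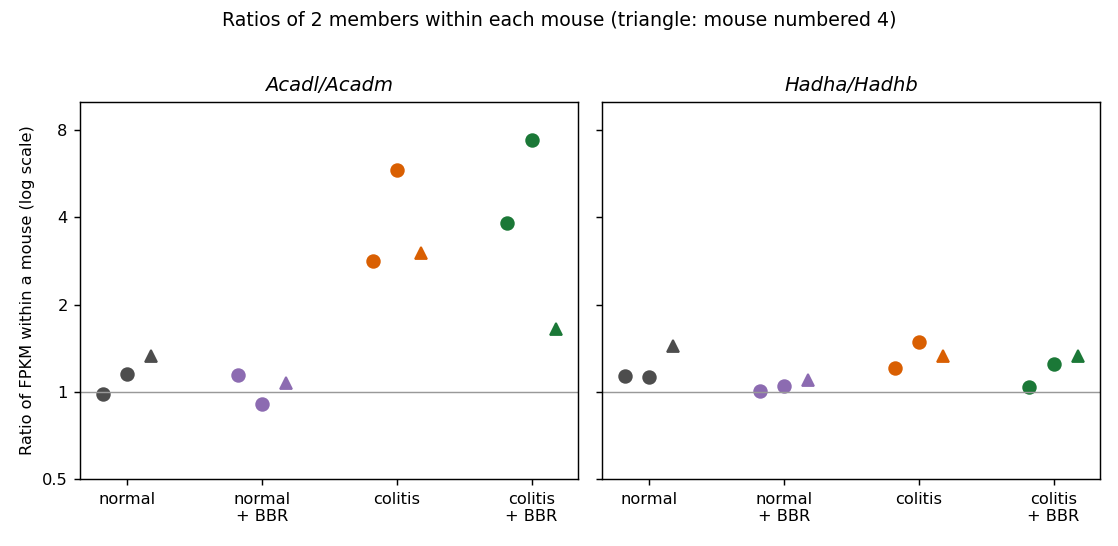
Ratio of FPKM within a mouse on a log scale for Acadl over Acadm (left) and Hadha over Hadhb (right), 1 point per mouse and triangles for the mice numbered 4. The left ratio is 0.91 to 1.32 without DSS and 1.64 to 7.37 with it, while the right ratio stays between 1.01 and 1.49.

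The starts of these 2 pairs are printed because one pair kept its ratio and the other did not. The windows run from 250 bases before to 50 bases after the RefSeq start in GRCm38.p6, 5′ to 3′ on the strand of the gene, with each copy of AGGTCA or its complement TGACCT, the hexamer bound by nuclear receptors such as the PPARs, in capitals. Acadl lies at chr1:66863260-66863559 (minus strand), Acadm at chr3:153944594-153944893 (minus), Hadha at chr5:30154931-30155230 (minus) and Hadhb at chr5:30155003-30155302 (plus).
Acadl: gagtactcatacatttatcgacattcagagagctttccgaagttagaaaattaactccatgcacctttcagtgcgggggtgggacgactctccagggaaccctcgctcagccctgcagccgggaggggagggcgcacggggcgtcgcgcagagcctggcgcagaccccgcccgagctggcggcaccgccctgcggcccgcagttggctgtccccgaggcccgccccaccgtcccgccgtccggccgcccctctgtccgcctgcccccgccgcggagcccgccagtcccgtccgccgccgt
Acadm: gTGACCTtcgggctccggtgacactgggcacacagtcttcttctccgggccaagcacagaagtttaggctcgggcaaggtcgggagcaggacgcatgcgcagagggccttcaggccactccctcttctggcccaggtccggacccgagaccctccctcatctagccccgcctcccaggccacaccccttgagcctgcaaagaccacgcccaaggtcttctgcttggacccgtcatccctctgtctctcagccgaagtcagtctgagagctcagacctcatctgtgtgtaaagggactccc
Hadha: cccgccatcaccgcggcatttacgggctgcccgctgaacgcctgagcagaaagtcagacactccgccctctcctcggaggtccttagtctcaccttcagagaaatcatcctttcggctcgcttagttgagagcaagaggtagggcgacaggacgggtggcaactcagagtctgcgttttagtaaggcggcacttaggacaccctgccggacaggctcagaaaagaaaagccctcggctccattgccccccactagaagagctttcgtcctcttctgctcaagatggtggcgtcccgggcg
Hadhb: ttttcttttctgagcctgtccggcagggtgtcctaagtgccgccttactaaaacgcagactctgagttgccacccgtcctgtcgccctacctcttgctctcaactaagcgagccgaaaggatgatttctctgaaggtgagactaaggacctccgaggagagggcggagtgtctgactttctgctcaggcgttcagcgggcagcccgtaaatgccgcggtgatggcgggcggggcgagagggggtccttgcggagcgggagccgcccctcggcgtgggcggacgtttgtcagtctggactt
Hadha and Hadhb start 273 bases apart on opposite strands, and their windows share 228 bases, so that both are read outward from 1 stretch. Acadm holds the hexamer at the far end of its window and Acadl holds none. RefSeq windows were at hand for 32 of the 36 members, in 36 windows. The hexamer was in 8 of them (22.2%), against 16.3% of all 32851 windows, on either strand. DR1, the direct repeat of 2 such hexamers with 1 base between them, which contains it, was in 0 of 36 and in 0.0396% of all windows. CCAAT was in 16 (44.4%), against 37.4%. A match is only a description of the letters in these windows.

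The auxiliary enzymes remove double bonds that the spiral cannot handle, and the electron transfer proteins pass its electrons to the respiratory chain. Of these 7 members, Eci1 was called. Eci1, an enoyl-CoA isomerase, was at 45.7, 39.0 and 22.8 FPKM in normal mice, 34.8, 40.3 and 19.6 with BBR, 19.2, 11.1 and 23.1 in colitis mice and 12.9, 13.2 and 22.5 in those given BBR (log2 fold change -0.98, SE 0.27, limma adjusted p = 0.0385). The fall was in the mice numbered 1 to 3 (log2 difference -1.52), whereas DSS and other mice numbered 4 all lay between 19.6 and 23.1 FPKM. Etfdh, which hands electrons to ubiquinone, passed only the P limit (-0.46, SE 0.17, limma adjusted p = 0.0820). Eci2, Decr1, Etfa, Etfb and Acot2 passed neither in the average, with log2 fold changes from -0.49 to 0.03. Acot2, a mitochondrial thioesterase with close relatives to which its reads could be assigned, was at 1.24, 1.25 and 1.38 FPKM in colitis mice, below the 2.63 to 4.41 of normal mice, and at 7.43, 1.17 and 2.51 in colitis mice given BBR.

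In the carnitine shuttle 0 of 5 members were called in the average. Cpt1a is its regulated entry enzyme, Slc25a20 the carrier across the inner membrane, Cpt2 the enzyme on its inner side, Slc22a5 the transporter that brings carnitine into the cell, and Crat an acetyltransferase. Slc25a20, the most abundant, was at 189, 250 and 172 FPKM in normal mice, 166, 153 and 171 with BBR, 248, 222 and 133 in colitis mice and 462, 270 and 144 in those given BBR. Both DSS mice numbered 4 were below every other mouse, and colitis mouse 2 given BBR was above every other. Slc22a5 was higher in each colitis mouse (12.3 to 14.3 FPKM) than in any normal mouse (9.95 to 11.2), as were 7.1% of genes, with 3 members among them, the others being Acadl and Acaa1b. Crat passed the P limit in the average (-0.68, SE 0.27, limma adjusted p = 0.0973). Cpt1a and Cpt2 had averages of -0.08 and 0.00.

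Peroxisomes shorten very long chains with their own enzymes, 2 of which are members. Ehhadh, the bifunctional hydratase and dehydrogenase, was at 22.1, 18.5 and 14.8 FPKM in normal mice, 17.6, 24.0 and 17.1 with BBR, 11.5, 5.55 and 11.4 in colitis mice and 14.8, 6.68 and 15.7 in those given BBR. Its log2 fold change was -0.87 (SE 0.26, limma adjusted p = 0.0460). The thiolase gene Acaa1b was at 0.19, 0 and 0 FPKM in normal mice and 0 in all 3 with BBR. It was at 1.36, 0.83 and 0.49 in colitis mice and 0.11, 0.29 and 0 in those given BBR (log2 fold change 1.86, SE 0.41). It met the 0.1 FPKM level only through mice given DSS. Its call is therefore no support for the rise, and its p is left out. At a length of 2000 bases, 3 reads amounted to 0.0768 to 0.12 FPKM, and 6 of the 12 values were 0. A close copy of the gene, Acaa1a, was far more abundant, at 15.9 to 51.7 FPKM with DSS and 39.5 to 69.5 without, and reads could be split between the 2 genes, so the values of Acaa1b are uncertain.

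Ketone bodies are made and used by Acat1, which joins or splits acetoacetyl-CoA, Bdh1, which interconverts acetoacetate and hydroxybutyrate, and Oxct1, which activates acetoacetate for use. All 3 were lower with DSS in both comparisons, and Oxct1 was called in the average. Oxct1 was at 133, 176 and 125 FPKM in normal mice, 177, 171 and 142 with BBR, 71.9, 76.4 and 83.0 in colitis mice and 129, 61.8 and 113 in those given BBR. The colitis mice were close together and below every normal mouse, and the average log2 fold change was -0.82 (SE 0.19, limma adjusted p = 0.0261). Acat1 was at 66.8, 60.1 and 48.0 FPKM in normal mice, 58.4, 72.6 and 41.6 with BBR, 40.8, 15.8 and 47.2 in colitis mice and 29.7, 21.2 and 42.0 in those given BBR, and just missed the adjusted limit (-0.90, SE 0.28, limma adjusted p = 0.0506), which it passed with a block for the mice numbered 4. Bdh1 passed only the P limit (-0.87, SE 0.34, limma adjusted p = 0.0899).

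Among the regulators, Ppara encodes the fatty acid receptor that turns on oxidation genes and Ppargc1a its coactivator. Pparg encodes the related receptor of fat cells and colonocytes, and Pdk4 a kinase that holds glucose carbon back from acetyl-CoA. Ppara was at 3.40, 2.29 and 2.15 FPKM in normal mice, 1.91, 4.08 and 1.94 with BBR, 1.12, 0.21 and 1.15 in colitis mice and 1.16, 0.35 and 2.14 in those given BBR (-1.51, SE 0.46, limma adjusted p = 0.0485). Ppargc1a was at 16.6, 20.6 and 20.6 FPKM in normal mice, 10, 19.4 and 26.5 with BBR, 7.65, 1.09 and 6.65 in colitis mice and 18.3, 1.33 and 13.7 in those given BBR. All 3 colitis mice were below all 3 normal mice, but with BBR the groups overlapped widely, and the average passed only the P limit (-1.78, SE 0.64, limma adjusted p = 0.0718). Pparg and Pdk4 passed neither limit, with averages of -0.02 and 0.07.

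Cd36, the membrane protein that takes up long-chain fatty acids, was at 2.73, 4.90 and 11.3 FPKM in normal mice, 3.20, 2.83 and 6.70 with BBR, 0.59, 0.95 and 1.73 in colitis mice and 0.97, 0.68 and 2.67 in those given BBR. The 2 sets of 6 mice did not overlap, although the highest DSS value, 2.67, was next to the lowest of the others, 2.73. Its log2 fold change of -1.96 (SE 0.43, limma adjusted p = 0.0232) was the lowest of the members. Cd36 is also abundant in fat cells, and the summed FPKM of 7 adipocyte markers was 142 in normal mouse 4, 102 and 52.2 in colitis mice 2 and 3 given BBR, and 0.75 to 9.04 in the other 9 mice. Among those 9, Cd36 was 2.73 to 6.70 without DSS and 0.59 to 2.67 with it. This was fixed in advance, since the 2 sets of 6 mice did not overlap and no smaller choice of them could. The part of fat cells in the fall of Cd36 was not tested. Acsl1 and Acsl5, which attach coenzyme A to long chains, and Plin2, the coat of lipid droplets, stayed between -0.17 and -0.04 on average and passed neither limit.

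The monocarboxylate transporters bring butyrate and ketone bodies into the cell. Slc16a1 was at 116, 101 and 110 FPKM in normal mice, 87.7, 95.5 and 118 with BBR, 81.4, 18.5 and 70.0 in colitis mice and 77.6, 25.1 and 105 in those given BBR. It was below every normal mouse in each colitis mouse and passed the P limit in the average (-0.98, SE 0.40, limma adjusted p = 0.0984). Slc5a8 ranged from 24.4 to 96.9 FPKM with DSS and from 59.5 to 111 without, and passed neither limit (-0.51, SE 0.34).

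The change with DSS was then set side by side in mice without and with BBR, which share no animals. In colitis against normal mice, 0 of 36 members were called, as were 1.08% of all genes. At the P limit 2 were higher (background 5.56%) and 12 lower (15.9%), which is 13 of 35 without Acaa1b, and 13 were lower in each colitis mouse than in any normal mouse (22.2%). With BBR, 0 members were called (0.0392% of all genes), 1 was higher at the P limit (2.37%) and 6 lower (17.3%). Acadl was the 1 member higher in each DSS mouse (2.26%), and 5 were lower in each (18%), namely Acadm, Acaa2, Ehhadh, Oxct1 and Cd36. The median of the members was -0.54 without BBR, where that of all genes was -0.32, and -0.42 with BBR, where it was -0.40. Acadl differed by 0.71 (SE 0.23) and 0.95 (SE 0.23), and Acadm by -0.96 (SE 0.33) and -0.84 (SE 0.33). Without colitis mouse 4 given BBR, 4 members were called with BBR, Acadl and Slc25a20 as higher and Acadm and Cd36 as lower, beside 14.7% of all genes. That mouse enters colitis against normal mice only through the shared estimate of the spread. There 3 were then called, Acadl, Cd36 and Acaa1b, beside 5.34%. With a block for the mice numbered 4, the same 3 were called in colitis against normal mice, beside 9.22% of all genes. In mice given BBR, Acadl and Cd36 were called with that block, beside 1.75%. Acaa1b met the 0.1 FPKM level only through mice given DSS.

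**Figure D4:**
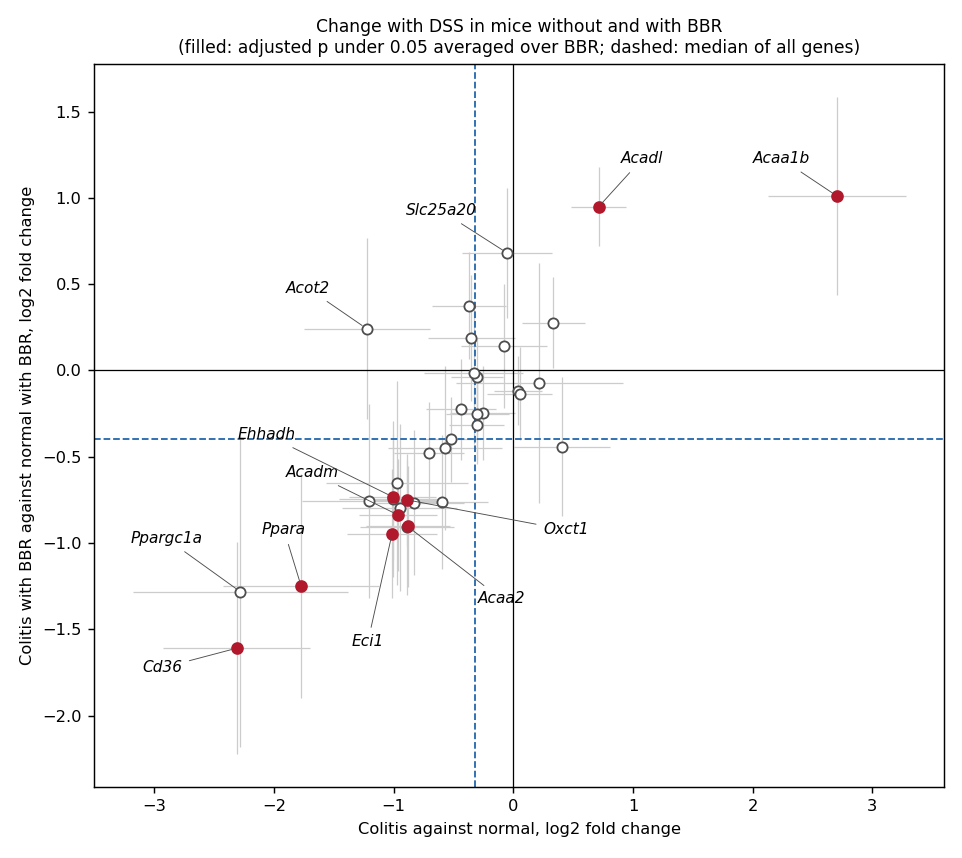
Log2 fold change with DSS of the 36 members in mice without BBR (horizontal) and with BBR (vertical), with SE bars. Filled points are the 9 members called in the average and dashed lines the medians of all genes, -0.32 and -0.40. Most members lie at the lower left, and Acadl and Acaa1b are the filled points at the upper right.

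The difference with DSS was also computed within the mice numbered 1 to 3 and within the mice numbered 4, since these stood apart. Averaged over BBR, its median over the members was -0.58 in the former, with 31 of 36 lower, where that of all genes was -0.49, and -0.06 in the latter, with 20 lower, where it was -0.09. In the spiral the medians were -1.14 and -0.07. Cd36 was at -1.96 and -1.97, and Acadl at 1.00 and 0.49. Acadm and Acaa2 kept their side with -1.15 and -0.41, and -1.14 and -0.41. By contrast, Acads was at -1.46 in the mice numbered 1 to 3 and 0.49 in the mice numbered 4, Bdh1 at -1.49 and 0.35, Echs1 at -1.30 and 0.19 and Hadh at -1.33 and 0.04. The mice numbered 4 are 1 mouse a group and include the DSS mouse with markers like those of mice without DSS. These differences were therefore not tested. The low values were also uneven among the other DSS mice. Colitis mouse 2 was the lowest of all 12 mice in 18 members and colitis mouse 3 given BBR in 8. The median of the members against the normal mean was -1.03 and -1.10 in these 2 mice, below the -0.43 and -0.56 of all genes in them. In colitis mouse 1 and colitis mouse 2 given BBR it was above that of all genes, at -0.19 and -0.14 against -0.41 and -0.58. In colitis mouse 4 and colitis mouse 4 given BBR it was below, at -0.37 and -0.29 against -0.08 and -0.11. Without colitis mouse 2, 4 members in place of 14 passed the P limit in colitis against normal mice. Summed macrophage markers in colitis mouse 2 were 426 FPKM, against 84.0 to 166 in the other 11 mice.

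**Figure D5:**
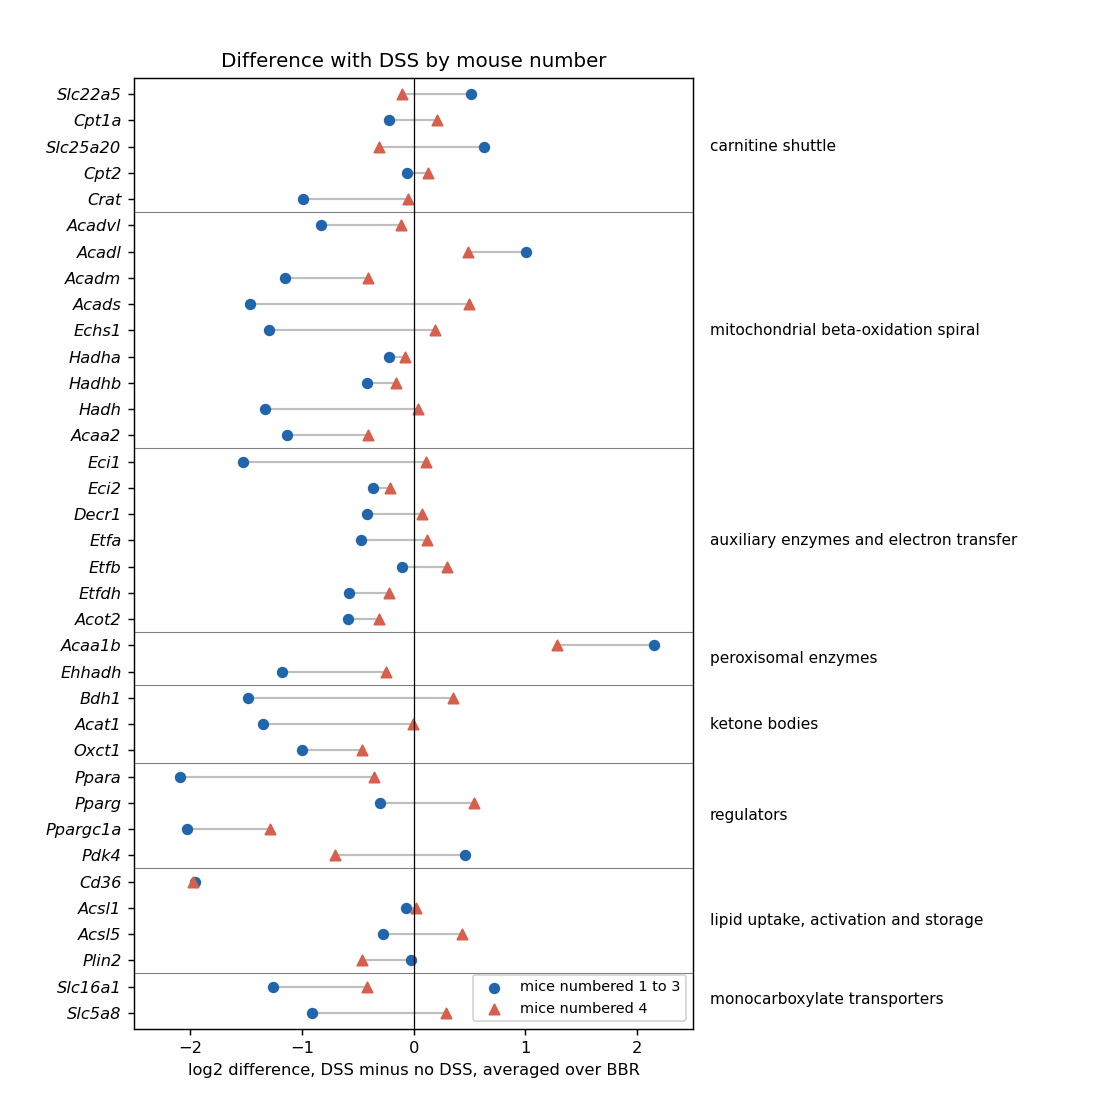
Log2 difference between DSS mice and mice without DSS, averaged over BBR, for each member within the mice numbered 1 to 3 (circles) and within the mice numbered 4 (triangles). Members such as Acads, Echs1, Hadh, Eci1 and Bdh1 are far to the left in the circles and near or right of 0 in the triangles, while Cd36 and Acadl keep their side in both.

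BBR itself was compared within colitis mice and within normal mice. In colitis mice given BBR against colitis mice, 0 members and 0% of all genes were called by limma, and 6.39% of genes passed the P limit, among them 1 member, Acaa1b (-2.20, SE 0.58, limma adjusted p = 0.486). In 32 of 36 members the log2 fold change was within 0.5 of 0, and 22 were above 0. The 95% intervals reached a median of 0.81 to either side of the value, and at such a width smaller changes could not be told from none. Colitis mouse 3 given BBR weighed on these counts. Without it, 58 genes (0.379%) and 0 members were called, and 6 members passed the P limit. Of these, Oxct1, Acot2, Ehhadh, Ppargc1a and Crat were higher with BBR, at 0.65 to 2.01 (background 3.26%), and Acaa1b was lower (7.54%). That mouse was the low one of its group, so leaving it out raises the values with BBR. Without colitis mouse 2, the low one of the other group, 0 members were higher at the P limit (264 genes) and 1 lower (645 genes). The median of the members was 0.33 without the former mouse and -0.16 without the latter. Acot2, Ppargc1a, Cpt2, Ppara and Slc25a20 had the highest values, at 1.07 (interval -0.07 to 2.22), 0.85 (-1.12 to 2.82), 0.48 (-0.20 to 1.16), 0.48 (-0.94 to 1.89) and 0.43 (-0.40 to 1.26). For Acadl the value was 0.03 (-0.48 to 0.53) and for Acadm 0.06 (-0.65 to 0.77). In 0 members were all 3 colitis mice with BBR above all 3 without (background 1.42%), and in 2, Acaa1b and Pparg, they were all below (5.66%).

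Colitis mice given BBR were also uneven. Colitis mouse 2 given BBR was the highest of the 6 DSS mice in 13 members, among them Slc25a20, Cpt2, Plin2, Pdk4 and Acot2, and colitis mouse 3 given BBR was the lowest in 9. Their adipocyte marker sums, 102 and 52.2 FPKM, were both above the 2.47 of colitis mouse 4 given BBR, and the part of these cells in the result was not tested.

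In normal mice, BBR passed the P limit in 0 members and 1.36% of all genes (0 members and 2.56% with the mouse number as a block), and the interaction of DSS and BBR in 0 members and 2.42%. In 2 members, Slc22a5 and Crat, the 3 normal mice with BBR were above the 3 without (background 4.17%), and in 3, Cpt1a, Slc25a20 and Acadl, below (5.46%). Cpt1a was 77.6 to 81.6 FPKM in normal mice and 45.9 to 59.8 with BBR, a log2 fold change of -0.53 (interval -1.33 to 0.26). Acadl was lower by less, at -0.21 (-0.71 to 0.30).

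Neighbouring parts of metabolism were described by lists of genes that are no members. Their counts in the DSS average stand beside the shares of all genes, of which 78.5% were lower, 2.85% were called higher and 11.4% were called lower. A list of 21 further genes drawn up for mitochondrial fatty acid oxidation had 19 lower, with 1 called higher and 6 lower and a median of -0.66. The 6 called lower, of which Acad8, Ivd, Pcca and Mmut are named after their values were seen, are known for the breakdown of branched-chain amino acids (Acadsb, Acad8, Ivd and Hsd17b10) and of propionate (Pcca and Mmut) rather than of long-chain fatty acids. Acadsb, the dehydrogenase of short branched chains, was at 9.85 to 14.3 FPKM without DSS and 3.51 to 10.2 with it (-0.94, SE 0.24, limma adjusted p = 0.0333). The called rise was Acacb (1.18, SE 0.31, limma adjusted p = 0.0348), which makes the malonyl-CoA that restrains Cpt1a at the mitochondrion. It was 0.44 to 1.44 FPKM without DSS and 1.54 to 2.82 with it, without overlap. Hsd17b10, a dehydrogenase of the matrix, was called lower (-0.82, SE 0.22, limma adjusted p = 0.0383).

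Of 20 peroxisomal genes, 15 were lower, with a median of -0.42. Hsd17b4, an enzyme of the peroxisomal route, was called lower (-0.72, SE 0.20, limma adjusted p = 0.0382).

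Of 21 PPAR target and lipid droplet genes, 13 were lower, with Vnn1 called higher (1.72, SE 0.39, limma adjusted p = 0.0248), Cyp4b1 called lower (-1.62, SE 0.36, limma adjusted p = 0.0232) and a median of -0.29. Of 14 acyl-CoA synthetases and fatty acid transporters, 12 were lower and Acsl3 was called (-1.19, SE 0.27, limma adjusted p = 0.0241), with a median of -0.69. Of 26 PPAR partners and energy sensors, 24 were lower, 1 was called higher (3.85%) and 6 lower (23.1%), and the median was -0.54. Sirt1, an NAD-dependent deacetylase that acts on Ppargc1a protein, was 5.78 to 8.94 FPKM without DSS and 2.75 to 5.32 with it (-0.86, SE 0.19, limma adjusted p = 0.0218). Esrrg, a nuclear receptor that works with Ppargc1a, was at -1.33 (SE 0.32, limma adjusted p = 0.0295).

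All 18 genes of the tricarboxylic acid cycle were lower, with 2 called (11.1%, near the 11.4% of all genes), Sucla2 (-0.65, SE 0.14, limma adjusted p = 0.0236) and Idh3a (-1.18, SE 0.33, limma adjusted p = 0.0394), and a median of -0.45. Of 17 genes of fatty acid synthesis and storage, 14 were lower and the median was -0.71. Dgat2, which makes triglyceride, was called higher (1.53, SE 0.28, limma adjusted p = 0.0136) and Gpam, the entry enzyme of glycerolipid synthesis, lower (-1.40, SE 0.33, limma adjusted p = 0.0282). Of 16 genes of monocarboxylate and butyrate handling, 10 were higher, with 2 called higher and 1 lower and a median of 0.12. Hcar2, a receptor for butyrate and hydroxybutyrate, was called higher at low levels, with 0.15 to 0.54 FPKM without DSS and 0.53 to 1.52 with it (1.00, SE 0.26, limma adjusted p = 0.0345), and Slc16a12 was called lower (-2.13, SE 0.45, limma adjusted p = 0.0204). These medians stand beside the -0.36 of all genes. With BBR in colitis mice, 0 genes of these lists were called by limma, as in the whole table, and the list medians lay between -0.20 and 0.07.

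Markers of the cells in the tissue moved with DSS as well. All 8 epithelial markers were present, and their sum, 9703 to 16952 FPKM in DSS mice and 10095 to 16672 in the others, overlapped, with 0 of 8 called in the average. The sum of 10 markers of surface colonocytes was 4826 to 25997 FPKM with DSS and 7818 to 15069 without, with 0 of 10 called. Smooth muscle markers were lower in 8 of 8, with 6 called, and granulocyte markers higher in 6 of 6, with 5 called. Of 7 macrophage markers 1 was called higher, and of 6 adipocyte markers tested 0 were called. Of 6 skeletal muscle markers tested, 1 was called higher and 2 lower, with sums of 8.87 to 22.5 FPKM in all 12 mice. With BBR in colitis mice, smooth muscle markers were higher in 8 of 8 (median 1.44). Granulocyte markers were lower in 6 of 6 (-2.29) and macrophage markers in 7 of 7 (-1.05), beside 62.0% of all genes. Epithelial markers were lower in 7 of 8, surface colonocyte markers in 4 of 10 and adipocyte markers in 1 of 6. At the P limit 5 macrophage and 1 granulocyte markers were lower (background 5.2%), and 0 markers were called. The part of these cells in the changes of the members was not tested.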

How the data were processed

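Rectal RNA of the 12 mice was measured by RNA-seq, and mice were grouped by the sample labels. The authors filtered the reads, aligned them to mm9 with Bowtie2 2.2.5 and estimated expression with RSEM 1.2.12, as their processing notes and methods state, and deposited 1 FPKM value per gene and mouse. The unit was read from the values, and TPM cannot be told apart from it.

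Genes with a mean of at least 0.1 FPKM were fitted as log2(FPKM + 0.1) by limma (version 3.58.1, R 4.3.3), using group means, a trend on expression and no term for mouse number. This scale understates changes of low genes. Exact permutation tests of single members (Python 3.11.15) are not given, since groups that do not overlap fix their p. P-values measure the spread between 3 mice a group. The table holds no counts, so the value of 3 reads was estimated from steps between low values and covers counting error only.

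The members and lists were chosen with earlier results of these data known. Values in every mouse are given for the 12 members with the smallest P and for the most abundant member of each role left over, and up to 3 genes a list are named by the smallest P of the DSS average. A few genes of these lists are not reported here. The numbers of the mice were checked as pairs in normal mice with and without BBR, the only comparison with 3 shared numbers. There the deviations from the group means correlated at 0.11 to 0.66, the highest being the mice numbered 4. Over all groups, mice numbered 1 to 3 had a mean correlation of 0.205 with the same number and 0.193 with different numbers. The alternatives were another pseudocount, another filter, other scalings, no trend, the compared groups alone, a block for each mouse number or for the mice numbered 4, and leaving out mice. Promoter windows are from RefSeq (GRCm38.p6), whose build differs from mm9.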

Additional observations from a re-analysis of the deposited data

How the results depend on the processing

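The counts of called members depended on the mouse number, the scaling and single mice, while Acadl's call in the DSS average held in all 12 fits without 1 mouse and all 10 other settings (0.73 to 1.23). None of the members past the P limit in a comparison turned its direction there in any setting run. Of the others in the DSS average, 10 turned with median centring, 4 with quantile normalization, 4 with the replicate block and 2 in the mice numbered 1 to 3. In the fits without 1 mouse, the other called members lost their call in 5 (Cd36, Oxct1, Acaa1b), 8 (Eci1), 9 (Acadm, Acaa2) or 10 (Ehhadh, Ppara) of 12, and a filter at a mean of 1 removed Acaa1b. Median centring brought Oxct1 from -0.82 to -0.43, Acadm from -0.90 to -0.51, Eci1 from -0.98 to -0.58, Acaa2 from -0.89 to -0.50 and Ehhadh from -0.87 to -0.48. A pseudocount of 1 brought Ppara from -1.51 to -0.88 and Acaa1b from 1.86 to 0.49, and one of 0.01 brought Acaa1b to 3.88. In the mice numbered 1 to 3, Eci1 was at -1.52. The causes were not tested, except that leaving out mice leaves fewer samples.

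Members called with DSS averaged over BBR (9) were 5 with quantile normalization, 3 with median centring, 4 with the replicate block, 12 with a block for the mice numbered 4, 6 without a trend, 17 in the mice numbered 1 to 3 and 1 (without normal mouse 3) to 19 (without colitis mouse 4 given BBR) without 1 mouse. Those past the P limit (18) were 9 with median centring, 11 with the replicate block and 13 to 22 without 1 mouse, and the median was -0.081 with median centring and -0.53 to -0.31 without 1 mouse.

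In colitis against normal mice, the 0 called members became 1 with a pseudocount of 1, no filter, no trend or the compared groups alone, 2 with the replicate block, 3 with a block for the mice numbered 4 and 4 in the mice numbered 1 to 3. Without 1 mouse of these 2 groups they were 0 to 1, and 3 without colitis mouse 4 given BBR. Those past the P limit (14) were 4 (without colitis mouse 2) to 16 without 1 mouse, and the median -0.73 to -0.28. Median centring left 5 past the P limit (2 higher and 3 lower). In colitis mice with BBR against normal mice with BBR, the 0 called became 2 with a block for the mice numbered 4 and 4 in the mice numbered 1 to 3, and 0 to 4 (without colitis mouse 4 given BBR) without 1 mouse. The 7 past the P limit became 2 with median centring (1 in each direction), 4 with the replicate block, 16 in the mice numbered 1 to 3 and 1 (without colitis mouse 3 given BBR) to 17 (without colitis mouse 4 given BBR) without 1 mouse. The median turned to 0.031 with median centring and was -0.53 to -0.19 without 1 mouse.

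In colitis mice with BBR against colitis mice, the 1 member past the P limit became 0 with a filter at a mean of 1, 2 with the replicate block and 1 to 6 (without colitis mouse 3 given BBR) without 1 mouse, with a median of -0.16 to 0.33. The 0 called genes became 1 to 4 in 6 other settings and 0 to 58 without 1 mouse. In normal mice BBR gave 1 in the compared groups alone and 0 without 1 mouse, with a median of -0.23 to 0.02. The interaction gave 1 with a pseudocount of 1, no filter, either block or the mice numbered 1 to 3, and 0 to 4 without 1 mouse, with a median of -0.13 to 0.41. The replicate block changed no other count of members by over 1.5 times, but all genes past the P limit went from 978 to 1685 for BBR in colitis mice, from 208 to 392 in normal mice and from 371 to 779 for the interaction. Deviations of same-numbered mice of different groups correlated at 0.078 to 0.75, the highest being mice numbered 4. The numbers were not taken as pairs in the main fit. With quantile normalization and median centring, the share of higher genes among all past the P limit went from 26.0% to 49.5% and 53.7% in colitis against normal mice, from 12.1% to 52.5% and 63.5% with BBR, from 18.6% to 43.5% and 46.1% for BBR in colitis mice and from 28.8% to 54.9% and 62.5% for the interaction.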
